A study of Mus musculus with 94 samples.

Results

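The brains of mice lacking the repair gene Mgmt were examined 48 hr after a single injection of methylazoxymethanol (MAM), against brains of Mgmt-/- mice given vehicle for the same time. The arrays were chosen by their titles and made up 12 of the 94 arrays of the series, 6 from MAM-treated and 6 from vehicle-treated animals. All were male C57BL6 mice, 11 weeks old, homozygous for the disrupted Mgmt gene, so that the vehicle animals lacked it too. The treated mice received 20 mg/kg MAM acetate by intraperitoneal injection, and the others 0.05% acetic acid in saline. RNA came from the right hemisphere of the brain, 1 animal to an array, and was hybridized to the Affymetrix Mouse Genome 430 2.0 array. The same 2 treatments were given to wt C57BL6 mice (6 MAM and 5 vehicle arrays at 48 hr), and Mgmt-/- mice were also sampled at 6, 24 and 168 hr. Animal numbers fell in 2 sets, which were taken to stand for the 2 laboratories of the study, with 3 MAM and 3 vehicle Mgmt-/- arrays in each.

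MAM is the aglycone of cycasin, the glucoside of cycad seeds, and yields a methylating species that alkylates DNA. One of its products, O6-methylguanine, pairs wrongly with thymine when DNA is copied. The MGMT protein removes that methyl group by transferring it to one of its own cysteines, and without MGMT the lesion persists until other repair acts or the base is copied. The brain is made up mostly of cells that no longer divide, and in whole tissue fewer cells of a type and less RNA per cell cannot be told apart.

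The 48 hr arrays were alike in overall signal, with a mean log2 value of 5.86 to 5.97 over all probe sets in the 12 arrays. One array stood apart. MGMT.MAM.48.337, from a MAM-treated animal of number set 1, had a mean correlation of 0.986 with the other 11 arrays, against 0.990 to 0.993 for each of the others. Neuron markers marked the tissue as brain, with mean log2 values of 11.01 to 11.37 in MAM arrays and 11.26 to 11.33 in vehicle arrays, the lowest being that of the same array. RNA quality differed between the groups. The 3′ minus 5′ signal of the array controls for Gapdh and beta-actin, a measure of RNA shortening, averaged 0.540 ± 0.061 in MAM arrays and 0.423 ± 0.056 in vehicle arrays (SD, n = 6 each, exact permutation test within number sets, two-sided p = 0.01, smallest possible 0.005). In wt arrays it averaged 0.331 ± 0.074 with MAM and 0.330 ± 0.031 with vehicle (SD, n = 6 and 5, exact p = 0.99). Beta-actin alone gave a difference of 0.222 and Gapdh alone 0.0127 (exact p = 0.01 and 0.595), and the part of this measure in the results was tested only as a covariate, given beside the counts. The Mgmt probe set had low signal everywhere, 5.47, 5.61 and 5.81 (lowest, median and highest) in MAM arrays and 5.34, 5.63 and 6.25 in vehicle arrays. It did not separate Mgmt-/- from wt vehicle brains (log2 difference -0.13, limma adjusted p = 0.643), so it does not check the genotype labels.

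Transcripts fell far more often than they rose. A transcript was called when the limma adjusted p was under 0.05 and the change exceeded 1.3-fold, among 35550 probe sets (16333 genes) that passed a filter on differences in response between the laboratories. Of the called genes 126 were lower, 8 were higher and Malat1 was called in both directions by different probe sets. With Malat1 in each, 0.778% of the genes tested were lower and 0.0551% higher, and the falls rested on 155 probe sets (0.436%). The falls had a median of -0.64 and a range of -1.76 to -0.38 on the log2 scale, and 22 genes fell more than 2-fold. All 155 probe sets were lower in both number sets, with medians of -0.72 in set 1 and -0.59 in set 2. The filter had already set aside probe sets whose response differed between the sets, so this agreement is not independent support. Fitted alone, set 1 called 7 genes lower and set 2 called 0. MAM and vehicle arrays did not overlap for 94 of the 155 probe sets, against 330 of all 45101 (0.732%). The 155 were called on these same arrays, so the larger share follows in part from that choice. With the RNA measure as a covariate all 155 differences stayed below 0, with a median of -0.61 and an unadjusted limma p under 0.05 for each. The 155 had been chosen by their p without it. After adjustment, however, 17 genes were called lower and 3 higher with the covariate. Of these, 16 and 3 were among the genes called without it.

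The largest fall was that of Smg1, which encodes a PI3K-like kinase that acts in nonsense-mediated mRNA decay and in the response to genotoxic stress. Its probe set gave log2 values of 5.18, 5.53 and 5.94 (lowest, median and highest of 6 arrays) after MAM, against 6.92, 7.32 and 7.58 with vehicle. Every MAM array lay below every vehicle array, a log2 difference of -1.76 ± 0.24 (SE, limma adjusted p = 0.000665) or a 3.39-fold fall. Of the PI3K-like damage kinases and checkpoint genes, 1 of 11 tested was called, and that was Smg1. Its call held with the RNA measure as a covariate (adjusted p = 0.0125). The genes below are grouped by function, not by size of fall. Of the 15 largest falls, Gpd2 (-1.27), Kbtbd11 (-1.25), Zfp800 (-1.22), Ttbk2 (-1.20), Arhgap20 (-1.20) and Lnpk (-1.19) belonged to none of the gene lists used. Among these Gpd2, Arhgap20 and Lnpk kept their calls with the RNA covariate (limma adjusted p = 0.0125, 0.0310 and 0.0486).

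Genes that shape chromatin are given first. Dnmt3a, a de novo DNA methyltransferase, had log2 values of 5.41, 5.66 and 5.76 after MAM, against 6.84, 7.25 and 7.52 with vehicle. The groups did not overlap (-1.57 ± 0.24, limma adjusted p = 0.00162), and Dnmt3a was the only one called of 11 tested genes of DNA methylation. Atrx, a chromatin remodeler of repeats and heterochromatin, had 5.30, 5.86 and 6.43 after MAM, against 6.70, 7.52 and 7.74 with vehicle (-1.52 ± 0.25, adjusted p = 0.00265). Ctcf, the zinc finger protein that sets loop boundaries together with cohesin, had 7.13, 7.24 and 7.97 after MAM, against 7.98, 8.63 and 8.87 with vehicle (-1.16 ± 0.18, adjusted p = 0.00173). Esco1, a cohesin acetyltransferase, also fell (-0.57 ± 0.12, adjusted p = 0.0182), so that 3 of 15 tested genes of Atrx, Ctcf and cohesin were lower and none higher. Of all genes tested 0.778% were lower. This list and those below were chosen with earlier results of these data known, so nothing is read from their shares. On the brightest probe set of each gene this list had a median difference of -0.06 and a lowest of -0.22. Of 28 tested genes of chromatin remodeling and histone modification, the SWI/SNF subunits Pbrm1 (-0.57) and Smarcc1 (-0.49) fell and none rose. With the RNA measure as a covariate Dnmt3a kept its call (limma adjusted p = 0.0312), while Atrx (0.144), Ctcf (0.059), Esco1 (0.531), Pbrm1 (0.306) and Smarcc1 (0.415) lost theirs.

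Neuronal signaling genes formed the next group. Grm5, the metabotropic glutamate receptor mGluR5, had log2 values of 7.13, 7.41 and 8.15 after MAM, against 8.17, 8.98 and 9.58 with vehicle. The highest MAM array lay just under the lowest vehicle array (-1.47 ± 0.22, limma adjusted p = 0.00126). Gad2, which makes the transmitter GABA from glutamate, had 6.04, 6.32 and 6.59 after MAM, against 6.98, 7.65 and 7.96 with vehicle, again without overlap (-1.27 ± 0.23, adjusted p = 0.00618). Ntrk2, the receptor of brain-derived neurotrophic factor, had 4.98, 5.21 and 5.96 after MAM, against 5.73, 6.60 and 6.97 with vehicle. Its groups overlapped, and its call was among the weaker ones (-1.18 ± 0.27, adjusted p = 0.038). Each was the only called member of its list, among 7 metabotropic receptors, 12 genes of GABA synthesis and reception and 5 neurotrophins and receptors tested. None of 8 tested AMPA and kainate receptor genes and none of 10 tested NMDA receptor and scaffold genes was called, the lowest limma adjusted p being that of Grik2 (-0.40, adjusted p = 0.204) and of Grin2b (-0.40, adjusted p = 0.349). With the RNA covariate the calls of Grm5 (limma adjusted p = 0.059), Gad2 (0.177) and Ntrk2 (0.162) were lost, at differences of -1.39, -1.22 and -1.41. The call of Ntrk2 was also lost without the array MGMT.MAM.48.337.

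Calcium handling and second messengers were represented by 1 or 2 members of each list. Camk1d, a calmodulin-dependent kinase, had log2 values of 6.52, 7.05 and 7.48 after MAM, against 8.05, 8.25 and 8.52 with vehicle (-1.27 ± 0.16, limma adjusted p = 0.000665). Cabin1, an inhibitor of calcineurin, fell by 0.65, and the 2 made up the calls among 13 calcium and calmodulin kinase genes. Atp2b2, a plasma membrane pump that expels calcium, had 7.59, 7.94 and 8.10 after MAM, against 8.82, 8.95 and 9.07 with vehicle. It had a log2 difference of -1.05 ± 0.16 (adjusted p = 0.00173) and was the only one called of 21 channels and pumps. Of 25 tested genes of cyclic nucleotide signaling, Pde1a, a calcium-activated phosphodiesterase, fell by 0.72 and Prkar2a, a regulatory subunit of protein kinase A, by 0.61. Camk1d and Cabin1 kept their calls with the RNA covariate (limma adjusted p = 0.0315 and 0.0396), and Atp2b2 (0.107), Pde1a (0.147) and Prkar2a (0.152) did not.

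Synapse and cytoskeleton genes fell in small numbers from each list, where 0.778% of all genes tested were lower. Among 17 tested synaptic adhesion genes, Cdh13 (-0.77), Nlgn1 (-0.71), Cdh8 (-0.66) and Adgrl3 (-0.61) were lower, and none was higher. Nlgn1 encodes a postsynaptic partner of neurexins and Adgrl3 a latrophilin. Of 22 vesicle release genes, Synj1, a phosphatase of vesicle uncoating, fell by 0.72 and Napb, a SNAP protein, by 0.55. Map1b, a microtubule protein of growing axons, had log2 values of 9.54, 10.08 and 10.78 after MAM, against 11.11, 11.37 and 11.59 with vehicle. It fell without overlap (-1.20 ± 0.22, limma adjusted p = 0.00758) together with Gsk3b (-0.60), Mapt (-0.47) and Myo6 (-0.43), which made 4 of 23 tested genes of axon and dendrite transport. Mapt encodes tau and Gsk3b a kinase of tau, and Mapt had the largest adjusted p of all calls (0.0497). None of these adhesion, vesicle and transport genes kept its call with the RNA covariate, the limma adjusted p running from 0.0848 for Cdh8 to 0.879 for Gsk3b.

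Some RNA-binding and protein turnover genes also fell, where 0.778% of all genes tested were lower. Of 38 tested splicing and RNA-binding genes, Luc7l (-0.96), Rbfox3 (-0.80), Bclaf1 (-0.72), Elavl4 (-0.51) and Celf1 (-0.45) were lower and none higher. Rbfox3, the splicing factor whose protein is the neuronal marker NeuN, had log2 values of 7.45, 7.61 and 7.88 after MAM, against 8.31, 8.45 and 8.51 with vehicle. The groups were apart by more than either spread (-0.80 ± 0.12, limma adjusted p = 0.00109), yet of 9 tested neuron markers it was the only one called, and the list's median difference was -0.07. Pabpc1, the cytoplasmic poly(A)-binding protein, had 10.48, 10.64 and 10.98 after MAM, against 11.15, 11.36 and 11.51 with vehicle (-0.68 ± 0.12, adjusted p = 0.00567), and Cpeb2 fell by 0.46. Nedd4, a HECT-type ubiquitin ligase, had 8.56, 8.99 and 9.40 after MAM, against 9.90, 10.14 and 10.28 with vehicle (-1.14 ± 0.16, adjusted p = 0.000665), and Ttc3, another ligase, fell by 0.92, both from 20 tested genes of that list. The chaperones Hsp90b1 and Hsph1 fell by 0.50 and 0.49 and were 2 of 13 tested. With the RNA covariate the calls of Rbfox3, Pabpc1 and Nedd4 held (limma adjusted p = 0.0457, 0.0376 and 0.0164), and those of the other genes in this group were lost (0.124 for Ttc3 or more).

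**Figure D1:**
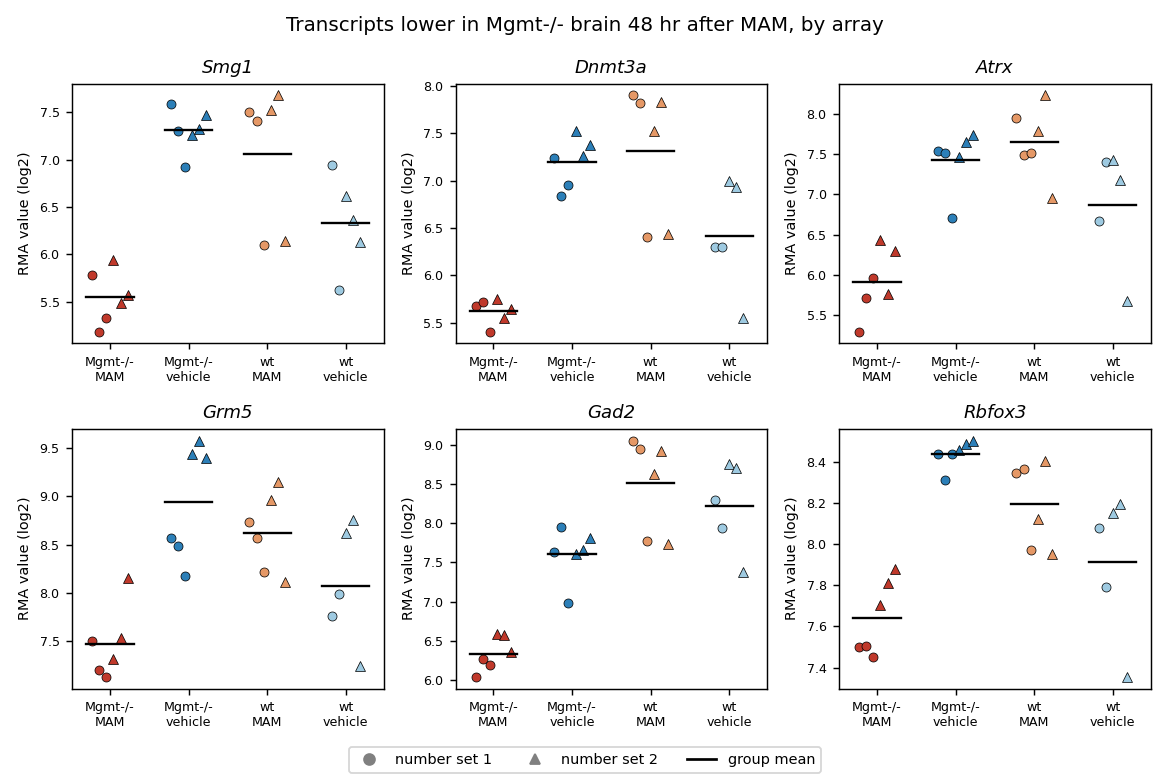
RMA log2 values of 6 transcripts in each 48 hr array (circles, number set 1; triangles, number set 2; line, group mean) in Mgmt-/- MAM, Mgmt-/- vehicle, wt MAM and wt vehicle brains. For these 6 the MAM arrays of Mgmt-/- mice lie below all their vehicle arrays, for Smg1 at 5.18 to 5.94 against 6.92 to 7.58, while wt arrays spread within their own groups.

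Most of these genes were measured by several probe sets, and the probe sets of a gene were seldom called together. Of the genes called lower, all but 4 had another probe set, and 8 had 2 or more called lower. Of the 342 probe sets of these genes not called lower, 206 were below 0, with a median log2 difference of -0.04. At an unadjusted limma p under 0.05, 66 of the 342 were lower and 12 higher. The laboratory filter had set aside 104 of them, which could not be called. The other probe set with the highest signal had a median log2 difference of 0.0000784 over these genes, against -0.63 for their called probe set, and for all but 16 genes it lay within 0.2 of 0. Beyond 1.3-fold lower were the other probe sets of 4 genes, Haus2, Kansl1, Nnt and Cks2. For Grm5 the other probe set differed by 0.01, for Gad2 by 0.01 and for Ctcf by -0.02. The brightest probe set that was not called differed by -0.00012 for Smg1, -0.0038 for Dnmt3a and 0.045 for Atrx. For Smg1, a second probe set was called lower (-0.45). For Atrx another gave -1.21, but its response differed between laboratories, so it was not tested. Counted on the brightest probe set of each gene alone, 12 genes were lower and 3 higher. This count leaves out genes whose brightest probe set failed the laboratory filter, and its p values were adjusted over the smaller set. For most of these genes the call thus rests on 1 probe set. Where in the transcript each probe set lies was not determined, and the part of the RNA measure in the split between probe sets was not tested.

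**Figure D2:**
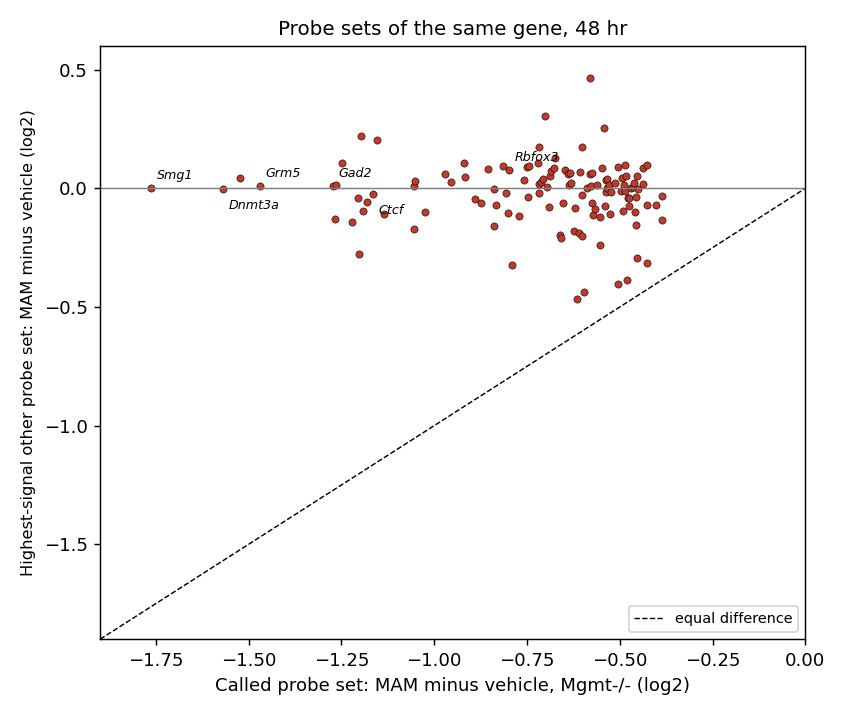
MAM minus vehicle difference (log2) in Mgmt-/- brain at 48 hr for the called probe set of each gene called lower (x axis) and for that gene's other probe set with the highest signal (y axis); the dashed line marks equal differences. Most points lie near 0 on the y axis (all but 16 within 0.2) although their called probe sets fell by a median of 0.63.

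The 9 genes called higher rose by 0.43 to 0.90 on the log2 scale. Malat1, an abundant nuclear noncoding RNA, had log2 values of 7.11, 7.53 and 8.0 after MAM, against 6.03, 6.59 and 7.25 with vehicle on the probe set that rose. The groups overlapped (0.90 ± 0.14, limma adjusted p = 0.00214), and another Malat1 probe set was called lower (-0.79). Malat1 thus has no single direction here. Vwf, the von Willebrand factor of endothelium, had 6.83, 7.30 and 7.61 after MAM, against 6.03, 6.42 and 7.21 with vehicle (0.76 ± 0.13, adjusted p = 0.00294). It has 1 probe set and was the only called gene of 12 endothelial and mural cell markers, whose median difference was -0.02.

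Gmps, a synthetase of guanine nucleotides, had log2 values of 9.17, 9.31 and 9.36 after MAM, against 8.55, 8.69 and 8.87 with vehicle. Its groups did not overlap (0.59 ± 0.11, limma adjusted p = 0.0115). Tgm2, a calcium-dependent protein crosslinker, had 7.53, 7.78 and 8.25 after MAM, against 7.12, 7.26 and 7.40 with vehicle (0.58 ± 0.13, adjusted p = 0.0289). Of its other probe sets, 4 gave 0.29 to 0.59 and 1 gave -0.14. Cp, the copper carrier ceruloplasmin, had 5.68, 5.91 and 6.14 after MAM, against 5.19, 5.45 and 5.66 with vehicle (0.46 ± 0.10, adjusted p = 0.0322). Sox9, a transcription factor of astrocytes, had 6.31, 6.77 and 6.98 after MAM, against 6.08, 6.33 and 6.48 with vehicle, with overlap (0.43 ± 0.10, adjusted p = 0.0375). Of 10 tested astrocyte markers Sox9 rose and Slc4a4, a bicarbonate cotransporter, fell (-0.64). The remaining rises were Pdk4 (0.56), Sppl3 (0.45) and Clec4d (0.43). With the RNA covariate Malat1, Vwf and Tgm2 kept their calls, and the other 6 did not (limma adjusted p = 0.144 for Gmps to 0.587 for Cp). Outside the threshold by the least were Socs6 (-0.42, adjusted p = 0.0501), Zscan26 (0.40, adjusted p = 0.0501) and Il4i1 (0.51, adjusted p = 0.0512).

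**Figure D3:**
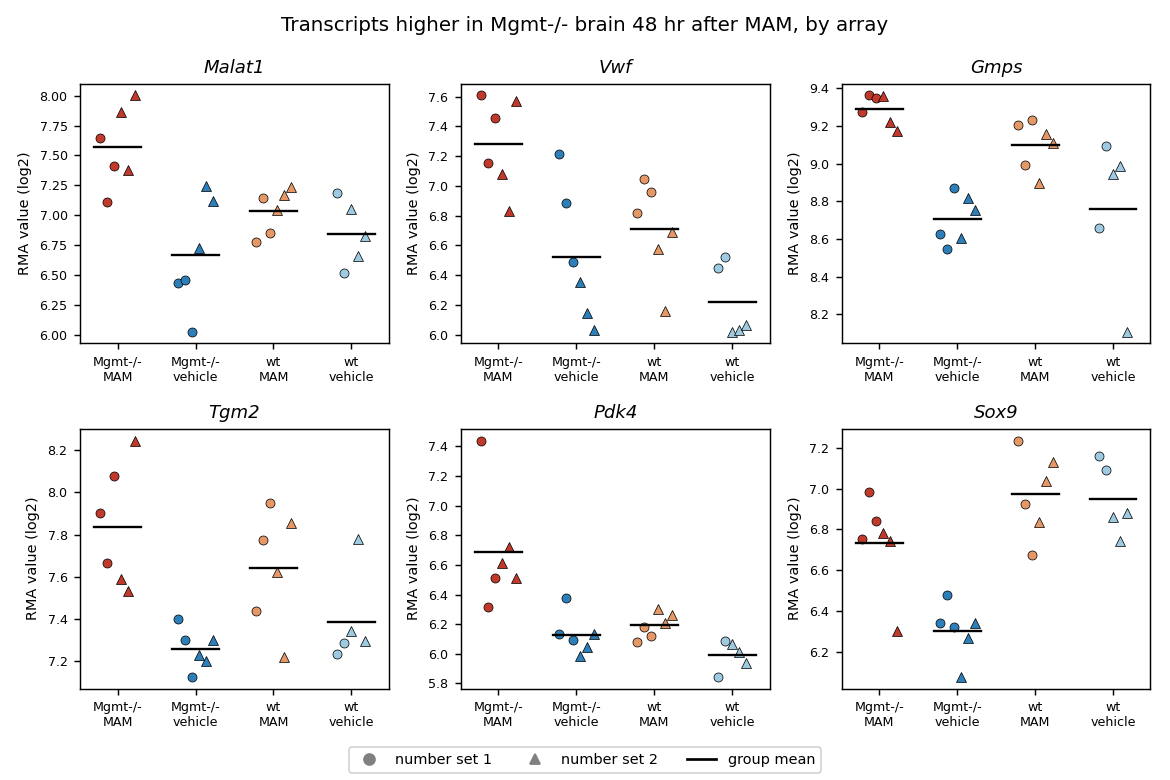
RMA log2 values of 6 transcripts called higher, in each 48 hr array, with groups, symbols and lines as in the plot of falls. Gmps separates the Mgmt-/- groups (9.17 to 9.36 after MAM, 8.55 to 8.87 with vehicle), whereas for Pdk4 1 MAM array, MGMT.MAM.48.337, lies above the rest at 7.44.

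Some red cell transcripts were lower, a group chosen after its values were seen. Of the 4 tested genes of the blood and red cell list 1, Alas2, was lower, and the list of 5 had a median difference of 0.0014 with 3 above 0. Alas2, the first enzyme of haem synthesis in red cell precursors, had log2 values of 4.70, 5.10 and 5.49 after MAM, against 5.60, 5.81 and 6.54 with vehicle, without overlap (-0.87 ± 0.16, limma adjusted p = 0.00747). Of the probe sets that match several globin genes and so name no single one, 3 read alpha-globin and 1 beta-globin. The brightest alpha-globin probe set had 11.19, 12.01 and 12.42 after MAM, against 12.84, 12.96 and 13.28 with vehicle, and the beta-globin probe set 10.26, 11.06 and 11.55, against 11.97, 12.25 and 12.55. All MAM arrays lay below all vehicle arrays for the 4 probe sets. Their differences ran from -1.26 to -1.04 with adjusted p of 0.00176 to 0.00402. Without each array in turn the differences were -1.37 to -0.87, with adjusted p up to 0.0143. With the RNA measure as a covariate they were -1.08 to -0.89, with adjusted p of 0.138 to 0.227. Xk (-0.59) and Tfrc, the transferrin receptor (-0.56), were called lower on 1 probe set each, while another probe set of Xk gave 0.000078 and the brightest of Tfrc 0.01. Not called were the probe sets that read a single globin gene, with 0.20 for Hba-a1, which failed the laboratory filter, 0.10 for Hba-a2, and -0.06 and -0.27 for Hbb-b2. Their signal was low, with vehicle medians of 3.90, 3.98, 4.91 and 4.30, which limits what they can show of a fall. Nor were probe sets of Slc4a1 (-0.12 to 0.09), Epb42 (-0.01 and 0.07), Fech (-0.24 to 0.14) and Bpgm (-0.29 to -0.20) called. Those of Slc4a1 (vehicle medians 3.95 to 4.19) and Epb42 (3.25 and 4.38) were dim too. The laboratory filter also set aside some probe sets of Slc4a1 and Fech. Brain samples hold blood, and how much blood each contained was not tested.

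The 4 shared globin probe sets were the ones whose response differed between 48 and 6 hr. In the fit over all times, the 4 globin probe sets differed by 0.39 to 0.57 at 6 hr, -0.25 to -0.06 at 24 hr and -1.21 to -1.05 at 168 hr. The 48 hr effect minus the 6 hr effect was -1.80 to -1.50 (limma adjusted p = 0.00531 to 0.0108), and of all 45101 probe sets these 4 were the only ones called between the 2 times. That fit used no laboratory filter, and all 4 failed the filter of the separate fits at 6 and 168 hr. Alas2 differed between 48 and 6 hr by -1.23 without a call (adjusted p = 0.286), and Xk and Tfrc were not called either (adjusted p = 0.999 each). In wt brain at 48 hr the 4 differed by -0.25 to -0.15, and the difference between genotypes was not called (adjusted p = 0.07 to 0.11).

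**Figure D4:**
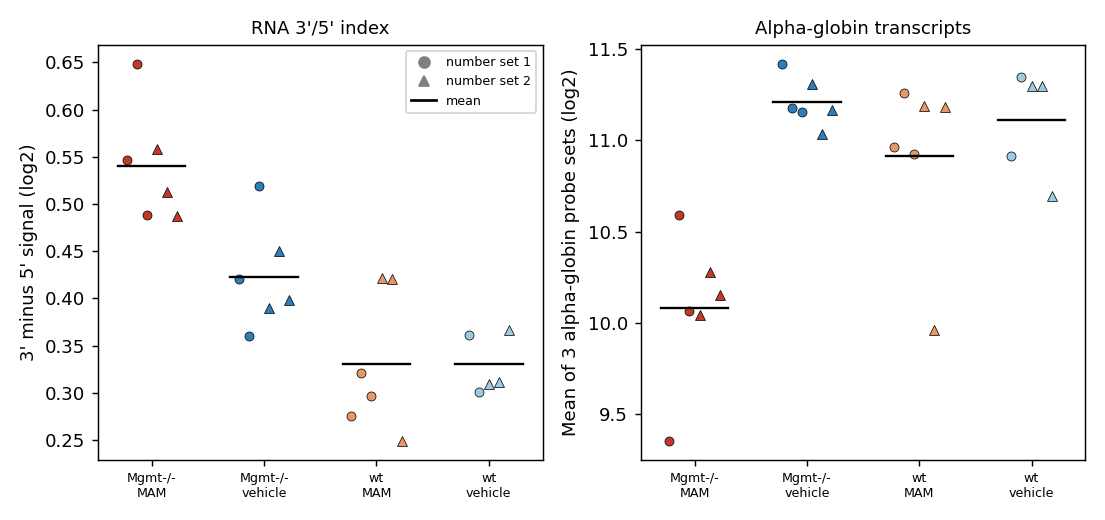
Left, the 3′ minus 5′ signal of the array controls for Gapdh and beta-actin (log2), and right, the mean of 3 alpha-globin probe sets (log2), in each 48 hr array of the 4 groups (circles, number set 1; triangles, number set 2; line, mean). Mgmt-/- MAM arrays had the higher RNA measure (0.487 to 0.649, against 0.360 to 0.519 with vehicle) and the lower globin signal.

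Promoters of the genes called lower were compared by short motifs in RefSeq windows (GRCm38.p6) of 250 bases before to 50 after the gene start, found for 100 of the genes. The GC box GGGCGG stood in 66% of them, against 54.5% of 12981 tested genes and 35.9% of all 27025 promoters, on either strand. A GATA motif (AGATAA, with A or T as its first letter and A or G as its last), the letters read by red cell GATA factors, stood in 18%, against 22.1% and 30.2%. For TGACGTCA the shares were 2%, 2.73% and 1.88%, for CCAAT 37%, 38.4% and 37.9%, and for TATAAA 7%, 9.64% and 14.2%. The promoters of Alas2 (chrX:150547167-150547466, plus strand) and Ctcf (chr8:105636288-105636587, plus strand) are shown because they stand for the red cell transcripts and for the chromatin genes. Capitals mark the GATA match in Alas2 and the GGGCGG match in Ctcf, both on the minus strand. Left unmarked are a GGGCGG in the Alas2 window and a GATA match (TTATCA, minus strand) in the Ctcf window. Neither motif is thus particular to 1 of these windows.
Alas2: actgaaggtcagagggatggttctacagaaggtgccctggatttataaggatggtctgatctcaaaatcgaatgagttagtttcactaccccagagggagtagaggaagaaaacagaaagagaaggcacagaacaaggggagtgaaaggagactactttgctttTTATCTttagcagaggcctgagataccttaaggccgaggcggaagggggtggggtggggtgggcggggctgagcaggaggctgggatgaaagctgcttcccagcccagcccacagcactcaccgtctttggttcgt
Ctcf: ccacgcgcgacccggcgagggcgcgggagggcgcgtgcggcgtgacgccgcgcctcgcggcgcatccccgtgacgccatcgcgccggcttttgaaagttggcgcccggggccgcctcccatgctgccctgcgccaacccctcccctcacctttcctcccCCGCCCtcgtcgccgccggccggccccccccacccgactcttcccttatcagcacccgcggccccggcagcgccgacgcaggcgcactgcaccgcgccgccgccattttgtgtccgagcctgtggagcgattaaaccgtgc

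Over the 47 gene lists read beside these results, 44 of 673 tested genes were lower and 4 higher, and 20 lists had no called member. Over all genes 0.778% were lower and 0.0551% higher, but the lists were chosen with earlier results of these data known, so nothing is read from the larger share. List medians, on the brightest probe set of each gene, mostly lay near the all-gene median of 0.01. Among the brain region lists, the medians of cerebellum and of hypothalamus and brain stem were -0.15 each. Those of striatum and olfactory bulb were -0.04 and 0.14. These lists had no called member, and whether the samples differed in brain regions was not tested. None of 16 tested p53 pathway genes was called (median 0.02), none of 23 genes of alkylation, mismatch and excision repair (median -0.01), none of 13 interferon genes and none of 12 microglia markers (median -0.13). The largest shifts were those of glucocorticoid-induced genes, with a median of 0.29 and 18 of 20 above 0, and of immediate early genes, with a median of -0.31 and 0 of 17 above 0, of which 9 passed the laboratory filter. Pdk4, an inhibitor of pyruvate oxidation, was the only called gene of either list. It had log2 values of 6.31, 6.56 and 7.44 after MAM, against 5.98, 6.11 and 6.38 with vehicle (0.56 ± 0.12, limma adjusted p = 0.0271).

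The array MGMT.MAM.48.337 led both lists. Its mean log2 value over the glucocorticoid-induced genes was 9.67, against 8.38 to 8.78 in the other MAM arrays and 8.26 to 8.59 in vehicle arrays. Its mean over the immediate early genes was 6.90, against 7.39 to 7.68 in the other MAM arrays and 7.55 to 8.02 in vehicle arrays. Without this array 87 genes were called lower and 8 higher, of which 76 and 4 were among the calls made with it. The rises that held were Malat1, Vwf, Gmps and Clec4d. Liver transcripts, a sign of other tissue in a sample, had a mean log2 value of 5.64 to 5.91 in MAM arrays and 5.30 to 5.73 in vehicle arrays, and their part in the results was not tested.

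The falls were set against the response of wt brain, where 0% of genes were called at 48 hr. No gene passed in wt by limma (smallest adjusted p = 0.0602) or by an ordinary linear model, and probe sets with an unadjusted p under 0.05 numbered 3119 in Mgmt-/- brain and 5356 in wt brain. The 155 probe sets that fell in Mgmt-/- brain had a median wt difference of 0.23, above 0 for 144 of them. Their group means had medians of 7.0 in Mgmt-/- MAM, 7.76 in Mgmt-/- vehicle, 7.86 in wt MAM and 7.57 in wt vehicle. The test of the difference between the genotypes' responses, which uses the same Mgmt-/- arrays as the falls, called 124 of the 155 lower, while across all probe sets it called 274 lower (0.771%) and 46 higher (0.129%). For Smg1 the wt difference was 0.74 and the genotype difference -2.50 (limma adjusted p = 0.000526), and for Dnmt3a they were 0.91 and -2.48 (adjusted p = 0.000526). The control animals differed as well. With vehicle, Smg1 averaged 7.31 in Mgmt-/- and 6.33 in wt brain (limma adjusted p = 0.0238), and Mgmt-/- vehicle was above wt vehicle for Grm5 by 0.92 (0.0195), for Map1b by 0.85 (0.0352) and for Camk1d by 0.73 (0.0134). The wt arrays of these probe sets were spread within their groups, and for Dnmt3a, WT.MAM.48.141 and WT.MAM.48.741 had 6.40 and 6.43, against 7.52 to 7.90 in the other 4 wt MAM arrays. WT.VEH.48.717 had 5.56, the lowest of the wt vehicle arrays. Among the 9 rises, Clec4d, a C-type lectin of myeloid cells, was the only one called to differ from wt (0.54, adjusted p = 0.0349).

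The falls at 48 hr were partly shared with the other times of Mgmt-/- brain. Each time had its own control animals and its own laboratory filter. The filter kept 94 of the 155 probe sets at 6 hr, 83 at 24 hr and 33 at 168 hr. Of all 45101 probe sets it kept 17732 at 6 hr, 21614 at 24 hr and 32025 at 168 hr. Among those kept of the 155, 55 were called lower at 6 hr, 49 at 24 hr and 3 at 168 hr. Of all probe sets tested at those times 1.27%, 0.62% and 0.253% were called lower. In the shares of the 48 hr falls below, probe sets set aside by the filter count as not shared. The 55 made up 35.5% of the 48 hr falls and 24.4% of the 6 hr falls. The 49 made up 31.6% of the 48 hr falls and 36.6% of the 24 hr falls, and the 3 made up 1.94% of the 48 hr falls and 3.70% of the 168 hr falls. Lower at 6, 24 and 48 hr alike were 23 probe sets. In the fit over all 47 Mgmt-/- arrays, without 1 array at 168 hr that held liver transcripts, the 155 had median differences of -0.52 at 6 hr, -0.54 at 24 hr and -0.44 at 168 hr, and 149, 155 and 154 were below 0.

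No gene was shown to respond differently at 48 hr than at 24 hr (0%) or 168 hr (0%). The smallest limma adjusted p were 0.603 and 0.639, with 898 and 976 probe sets at an unadjusted p under 0.05 and none called by an ordinary linear model. Smg1 differed by -1.47 at 6 hr, -1.88 at 24 hr, -1.76 at 48 hr and -1.35 at 168 hr, and Grm5 by -1.51, -1.64, -1.47 and -1.24. Of the 9 rises, 3 were also called at 6 hr, 2 at 24 hr and 0 at 168 hr, among 6, 4 and 7 kept by the laboratory filter. The share of all probe sets called higher at those times is not given, so nothing is read from these counts.

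**Figure D5:**
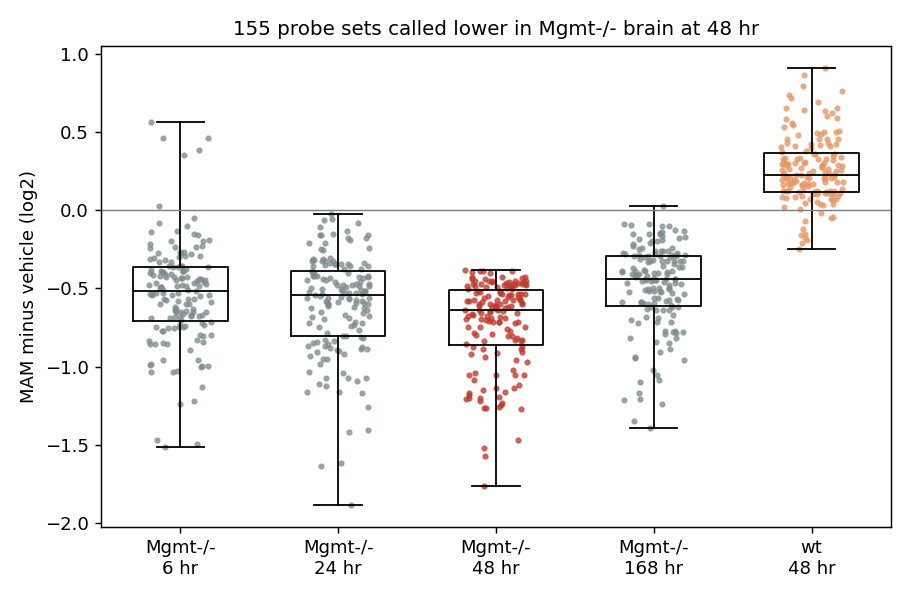
MAM minus vehicle difference (log2) of the 155 probe sets called lower at 48 hr, in Mgmt-/- brain at 6, 24, 48 and 168 hr and in wt brain at 48 hr; boxes span the quartiles with the median line, whiskers reach the lowest and highest value. Most differences of Mgmt-/- brain lie below 0 at each time, with medians of -0.52, -0.54, -0.64 and -0.44, and those of wt brain have a median of 0.23.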

How the data were processed

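The authors summarised the scanned arrays with RMA in the affy package (versions not given in the sources used here) and deposited log2 values for 45101 probe sets. Probe sets were named from the platform annotation: 34958 had 1 gene symbol, 932 several and 9211 none. The 23 arrays at 48 hr were fitted in limma 3.58.1 (R 4.3.3) with group and number set. A probe set entered the tests if a joint F test over 3 terms for laboratory by group gave p above 0.15 (78.8%), p values were adjusted by Benjamini-Hochberg over those, and a call needed an adjusted p under 0.05 and a change above 1.3-fold. A gene was called with any of its probe sets. The fit over times used 47 Mgmt-/- arrays with number set within time. Named were Mgmt, the 15 largest falls, all rises, called members of the lists or their member with the smallest p, and genes named earlier for 48 hr; not all are printed. Members and lists were chosen with earlier results of these data known. The number of animals limits the precision. The code was tested on simulated data. Alternatives covered the filters, the thresholds, normalization, array weights, the RNA measure, number sets, single arrays and the probe set choice; the last, and those of the globin probe sets, were chosen after seeing the data.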

Additional observations from a re-analysis of the deposited data

Results flagged for a closer look

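Outlying arrays were sought for each of several transcripts and for the RNA measure within each Mgmt-/- group, 48 sets of values in all. In 5 of the 48, the gap between 1 array (named by its title) and the next was large against the range of its group. Chance flags about 1 in 20 of such sets, but these share the same arrays and are not independent. MGMT.VEH.48.317 had log2 values of 6.703 for Atrx, the next vehicle array being at 7.46, and 6.984 for Gad2, the next at 7.613. MGMT.VEH.48.315 had 8.311 for Rbfox3, the next at 8.44. MGMT.MAM.48.337 had 7.438 for Pdk4, the next at 6.722, and MGMT.MAM.48.965 had 6.306 for Sox9, the next at 6.744.

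The MAM effect differed between Mgmt-/- and wt brain, by limma's test of the difference, for 14 of the transcripts described above. The effect in Mgmt-/- minus that in wt was -2.5 for Smg1 (adjusted p = 0.000526), -2.482 for Dnmt3a (0.000526), -2.321 for Atrx (0.00156), -2.07 for Grm5 (0.0013) and -1.901 for Camk1d (0.000204). It was -1.765 for Map1b (0.00821), -1.685 for Ntrk2 (0.0336), -1.577 for Gad2 (0.0193), -1.557 for Atp2b2 (0.00141) and -1.54 for Ctcf (0.00455). It was -1.479 for Nedd4 (0.0013), -1.087 for Rbfox3 (0.00154), -0.8001 for Pabpc1 (0.024) and 0.5448 for Clec4d (0.0349). Mgmt-/- and wt vehicle arrays also differed for Smg1, Grm5, Camk1d, Map1b and Rbfox3 among these.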

How the results depend on the processing

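The counts of genes lower, of 9 genes higher and of 276 genes with a genotype difference changed with the processing. Without the laboratory filter 210 genes were lower and 14 higher. An ordinary linear model gave 44, 2 and 94. A 1.5-fold threshold gave 77 and 3. The RNA measure as a covariate gave 17, 3 and 52. Array weights gave 19 rises and 744 genotype differences, and cyclic loess 15 rises. Number set 1 alone gave 7 falls and 0 rises, and set 2 alone 0 and 0, in limma fits with 1048 lower and 495 higher probe sets at an unadjusted p under 0.05 in set 1 and 1406 and 1294 in set 2. The brightest probe set of each gene, chosen after seeing the data, gave 12 and 3. Leaving out 1 array gave 78 (without MGMT.VEH.48.315 or MGMT.VEH.48.917) to 239 falls (without MGMT.VEH.48.317), 5 (without MGMT.VEH.48.315, MGMT.VEH.48.913 or MGMT.VEH.48.917) to 18 rises (without MGMT.VEH.48.317), and 144 to 744 genotype differences. Outside 1.5 times the last count were the fits without WT.VEH.48.717 (144), WT.MAM.48.739 (147), WT.MAM.48.137 (168), MGMT.VEH.48.917 (181), WT.VEH.48.115 (494) and MGMT.VEH.48.317 (744). The count of genes differing between 48 and 168 hr was 0 to 1, the 1 without MGMT.MAM.48.337. The RNA measure's difference was 0.0954 to 0.139 without 1 array, and 0.0127 from Gapdh alone (exact p = 0.595). Of 2752 values of named genes under an alternative, none reversed, 2359 kept their side of the threshold, 386 lost their call and 7 gained one. Genes called under neither are among those that kept their side. A probe set that a filter set aside under an alternative gave no value there and is not among the 2752. No paired analysis was possible because each animal number occurs once. Dim probe sets are limited by background. The cause of these changes was not tested.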
